A study of Mus musculus with 4 samples.

Results

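Type 17 T cells were selected on raw expression values from the 4 single-cell libraries of CD45+ cells of mouse nasal mucosa by a gate on counts of unique molecular identifiers (UMIs, the counted RNA molecules), and 3471 of the 72320 cells kept for analysis met it. A member had at least 2 UMIs of Cd3e, Cd3d and Cd3g, which encode chains of the T cell receptor complex, and at least 1 UMI of Il17a, Il17f or Cd163l1. It had no UMI of Foxp3, Cd8a, Cd8b1, Cd79a or Cxcr2, fewer than 3 of the proliferation genes Mki67 and Top2a, and fewer than 2 of the macrophage genes C1qa, C1qb and C1qc. Members with a Cd4 UMI numbered 1847 and members without one 1624; they are called Cd4+ and Cd4- below. T cells that met every other condition but held no UMI of Il17a, Il17f or Cd163l1 numbered 4884 and are called the other T cells. The gate used Il17a, Il17f and Cd163l1, so their levels in members are a description.

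The mice were C57BL/6 animals aged 8 weeks, and 1 library stands for each treatment, namely Vehicle and Ribavirin, each without and with OVA. OVA stands for ovalbumin, given by injection to sensitise the animals and then through the nose to provoke allergic rhinitis, while ribavirin is an antiviral nucleoside analogue, which the series title describes as a nasal spray against commensal viruses. All 4 suspensions were selected for CD45, the surface marker of blood-derived cells, and the number of mice behind a library, the vehicle and the ribavirin dose are not given in the sources used here. With 1 library per treatment, differences between treatments have no replicate check and no test; their 95% intervals cover counting error only, and fewer cells of a type and less RNA per cell cannot be told apart where all cells are summed. Comparisons between kinds of cell are paired within the 4 libraries and were tested. Values given as a list of 4 follow the order Vehicle, Vehicle-OVA, Ribavirin and Ribavirin-OVA throughout.

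Type 17 T cells are lymphocytes that secrete the cytokines IL-17A and IL-17F, which act on epithelium and stroma to raise neutrophil-attracting chemokines and antimicrobial peptides at mucosal surfaces. They respond to IL-23 and IL-1. They include αβ T helper 17 cells, which carry CD4, and innate-like γδ T cells. The γδ cells are programmed in the thymus, carry Sox13 and Blk, and often bear the scavenger receptor encoded by Cd163l1.

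Many nuclear receptors bind DNA at the core AGGTCA, so the 250 bases upstream of the RefSeq start site (GRCm38.p6) are shown for Il17a and Il17f, which defined the cells, and for Il23r and Ccr6, whose levels are compared below. They are written 5′ to 3′ on the strand of the gene, with AGGTCA or its reverse complement TGACCT in capitals.
Il17a, chr1:20730655-20730904, plus strand: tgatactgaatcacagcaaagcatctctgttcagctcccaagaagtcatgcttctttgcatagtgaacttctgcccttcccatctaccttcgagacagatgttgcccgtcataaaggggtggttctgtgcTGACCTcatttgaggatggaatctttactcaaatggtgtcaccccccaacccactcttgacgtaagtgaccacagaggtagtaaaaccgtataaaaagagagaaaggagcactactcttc
Il17f, chr1:20784271-20784520, minus strand: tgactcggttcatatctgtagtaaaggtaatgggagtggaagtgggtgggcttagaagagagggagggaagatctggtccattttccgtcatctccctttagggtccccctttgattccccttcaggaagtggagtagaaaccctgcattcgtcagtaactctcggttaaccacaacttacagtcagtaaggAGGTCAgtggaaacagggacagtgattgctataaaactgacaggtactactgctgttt
Il23r, chr6:67491856-67492105, minus strand: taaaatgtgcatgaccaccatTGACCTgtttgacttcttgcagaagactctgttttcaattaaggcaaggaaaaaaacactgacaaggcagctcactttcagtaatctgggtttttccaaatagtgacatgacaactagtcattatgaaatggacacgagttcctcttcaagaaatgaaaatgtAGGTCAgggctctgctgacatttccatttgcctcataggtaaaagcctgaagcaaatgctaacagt
Ccr6, chr17:8235793-8236042, plus strand: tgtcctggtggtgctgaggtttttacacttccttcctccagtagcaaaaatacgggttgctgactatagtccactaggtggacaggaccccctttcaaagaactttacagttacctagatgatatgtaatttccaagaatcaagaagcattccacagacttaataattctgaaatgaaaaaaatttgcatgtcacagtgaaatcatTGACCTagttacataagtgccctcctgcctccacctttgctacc
The core lies 120 bases before the start of Il17a, 58 before that of Il17f, 229 and 66 before that of Il23r, and 44 before that of Ccr6 (first base of the match). A further Ccr6 promoter, chr17:8242276-8242525, holds no match. The core occurs in 14.0% of all 32851 mouse promoter windows of this length. Counted by gene, with a match in any of its windows, it occurs in 15.0% of 421 genes higher in type 17 than in other T cells. It occurs in 13.8% of 443 genes lower there and in 13.0% of the 8297 genes tested there. These shares are close to each other.

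Members fell into 1828, 247, 1087 and 309 cells. Their median depth was 4259, 4923, 5136 and 5324 UMIs per cell, and their summed UMIs were 9093537, 1337528, 6558440 and 1741279. Of kept cells, 43 to 148 barcodes were shared by a pair of libraries; among members 1 barcode was. The deposited libraries held 10311 to 28277 cells and 91742940 to 171873110 UMIs.

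Il17a in members is set beside cells outside the gate as a description only, because the gate selects on it. It was measured at 2183, 2461, 2122 and 1838 counts per 1000000 UMIs (CPM) in members and at 4.59, 2.79, 3.85 and 2.33 CPM in cells without a Cd3 UMI. An Il17a UMI was present in 81.9%, 84.2%, 86.6% and 76.1% of members, and in 2.13%, 0.939%, 2.47% and 1.65% of neutrophils, which should lack it, at neutrophil median depths of 2634.5, 3350, 3060 and 3702.5 UMIs. Il17f was rarer, in 18.4%, 13.8%, 16.5% and 15.9% of members, mostly beside Il17a. Cd163l1 was present in 20.8%, 20.2%, 17.8% and 36.2%, and was the only gate gene seen in 14.7%, 12.1%, 9.29% and 19.7%. A Cd163l1 UMI was present in 0.0569% to 0.509% of neutrophils. The median member held 6 or 7 UMIs of the 3 genes and the highest 440, while 14.9% to 18.2% of members had entered on a single UMI.

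**Figure D1:**
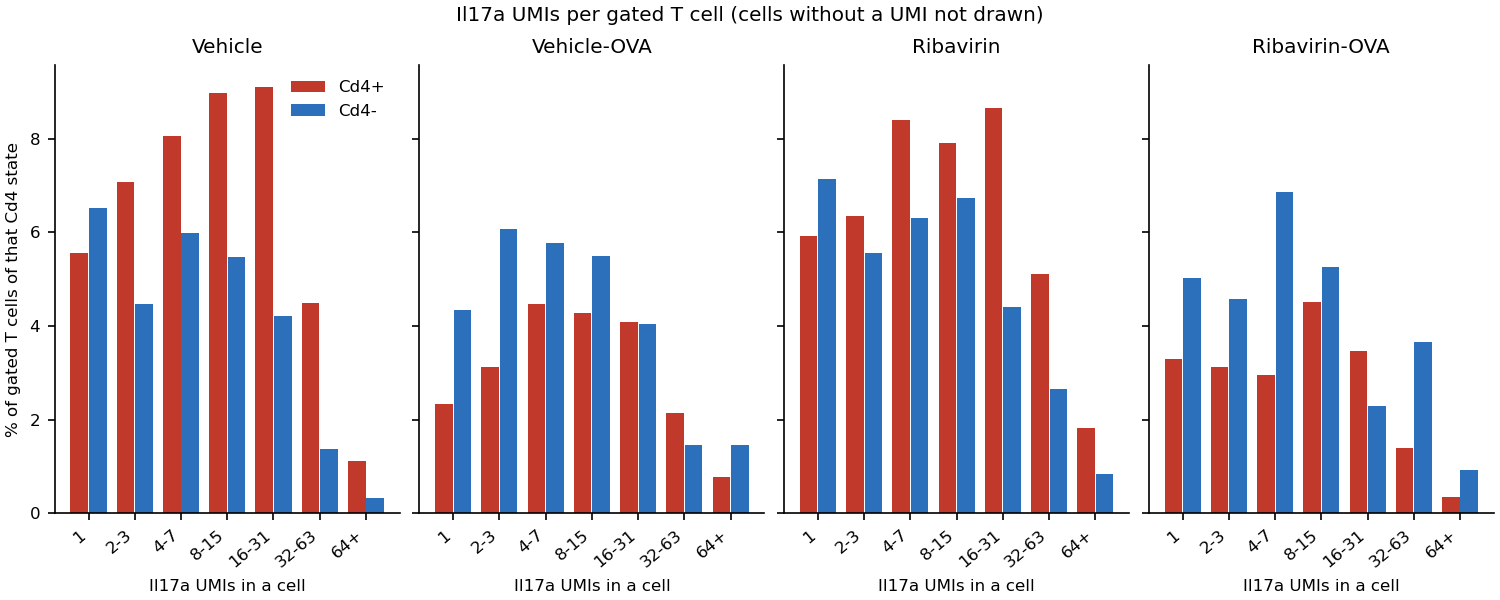
Share of gated T cells (vertical axis, percent) by Il17a UMIs per cell in bins from 1 to 64 or more (horizontal axis), for Cd4+ (red) and Cd4- (blue) cells in each of the 4 libraries. Cells with many Il17a UMIs are present on both sides in every library.

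Cd27, a costimulatory receptor of the TNF receptor family, was lower in cells that held gate UMIs, a description given without a test because the same UMIs set the threshold. In Cd4+ cells of the Vehicle library it was at 53.7 CPM with 0 gate UMIs, 8.46 with 1, 3.58 with 2 to 3 and 7.41 with 4 or more. In Vehicle-OVA the same bins held 123, 60.6, 10.3 and 11.0 CPM, in Ribavirin 68.7, 14.8, 12.8 and 5.54, and in Ribavirin-OVA 103.8, 9.05, 20.5 and 14.1. Cd4+ cells that entered on 1 UMI thus lay below the outside cells in all 4 libraries. Ccr6 in Cd4+ cells was at 74.2, 50.4, 43.6 and 26.0 CPM with 0 gate UMIs and 126, 239.9, 117 and 239 with 4 or more. Blk, a Src-family kinase, followed the gate UMIs in Cd4- cells: Cd4- cells had 21.3, 18.5, 28.9 and 22.8 CPM at 0 gate UMIs and 114, 195, 207 and 287 at 4 or more, while Cd4+ cells stayed at or below 27.3 CPM in every bin.

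**Figure D2:**
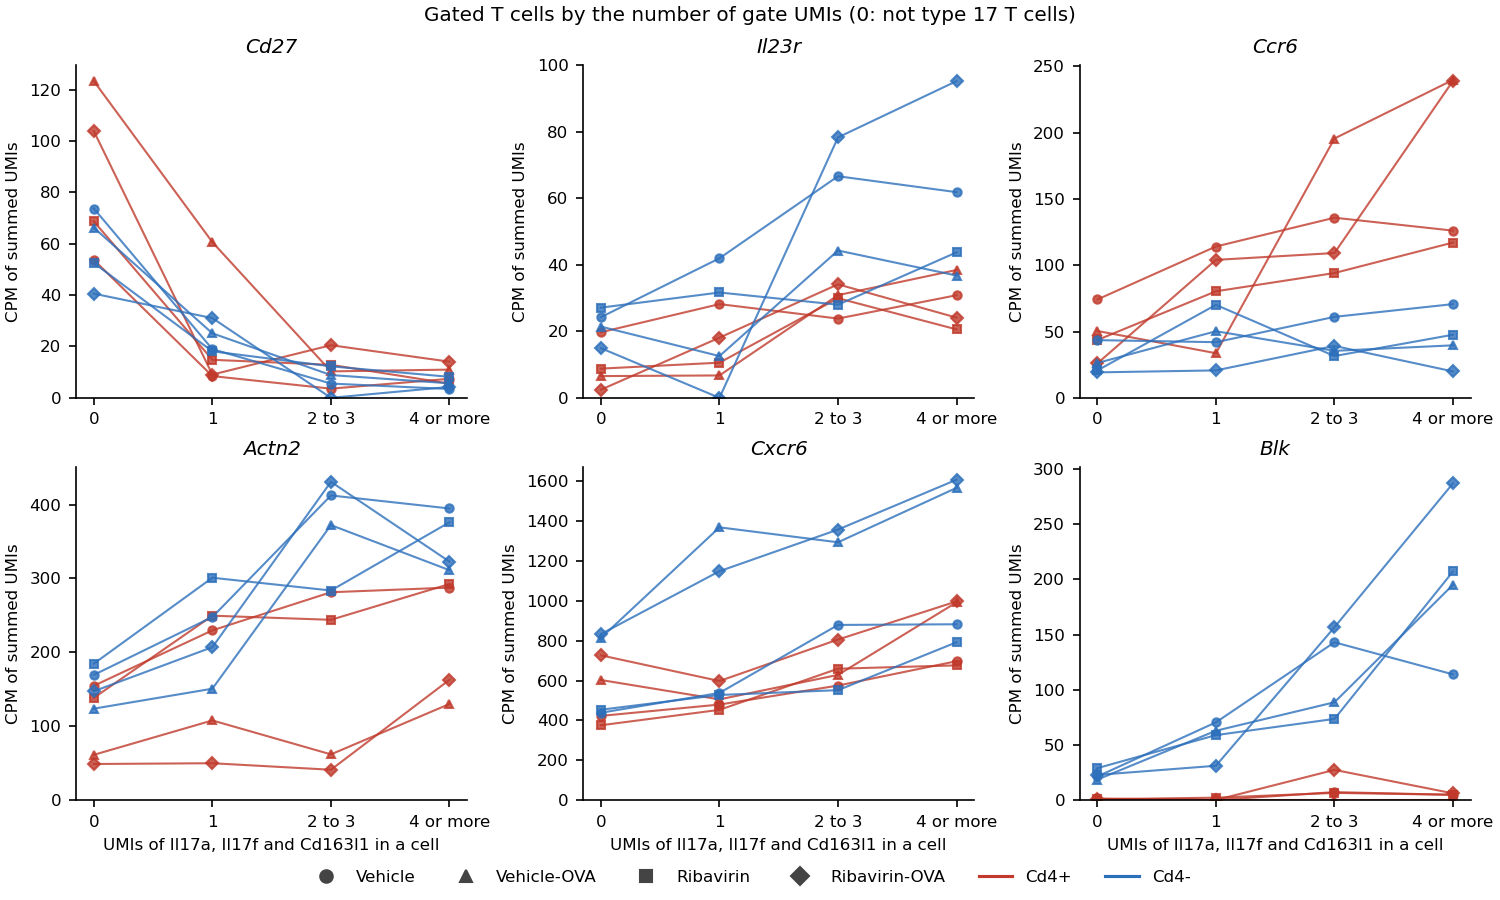
Levels in CPM (vertical axes) of Cd27, Il23r, Ccr6, Actn2, Cxcr6 and Blk in gated T cells with 0, 1, 2 to 3 and 4 or more UMIs of Il17a, Il17f and Cd163l1 (horizontal axes), separately for Cd4+ and Cd4- cells in each library. Cd27 is highest in cells with 0 gate UMIs, and Blk is high in Cd4- cells.

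Cells expressing Il17a extend beyond the gate. Members held 60.5%, 59.1%, 59.5% and 60.4% of all Il17a UMIs of their library, T cells barred by another condition 37.7%, 34.6%, 38.5% and 33.5%, and cells with fewer than 2 Cd3 UMIs 1.79%, 6.32%, 2.08% and 6.06%. The barring conditions overlap: T cells with a Cd8a or Cd8b1 UMI held 7.42%, 19.3%, 13.0% and 22.9%, those barred by Mki67 and Top2a 14.2%, 9.39%, 13.6% and 5.00%, those barred by the C1q genes 12.8%, 6.32%, 10.8% and 5.08%, and those barred by Cxcr2 8.87%, 8.58%, 8.74% and 3.91%.

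To describe how abundant type 17 T cells were under OVA, their share was taken over nested denominators. They were 7.11% of kept cells in Vehicle (95% Clopper-Pearson interval 6.79 to 7.43) against 1.41% in Vehicle-OVA (1.24 to 1.60), and 5.36% in Ribavirin (5.05 to 5.68) against 3.50% in Ribavirin-OVA (3.13 to 3.91). Cells with at least 2 Cd3 UMIs were themselves 28.7%, 9.17%, 23.4% and 21.4% of kept cells. Members with exactly 2 Cd3 UMIs were 0.821%, 8.10%, 0.920% and 5.83% of members. In the other T cells Cd3d was at 918, 520, 827 and 458 CPM and Cd3g at 1141, 587, 1061 and 684 CPM. Cd3e there was at 353, 355, 311 and 343 CPM. Fewer T cells and less Cd3 RNA per T cell were not told apart in these shares. Within gated T cells, members made up 45.0% (43.4 to 46.5) and 28.7% (25.7 to 31.9) without and with OVA under vehicle, and 45.0% (43.0 to 47.0) and 30.5% (27.7 to 33.4) under ribavirin. The share among T cells was thus lower in both OVA libraries by a similar amount, whereas the share of kept cells differed between them. After thinning every cell to 2000 UMIs the shares of gated T cells were 39.7%, 22.9%, 37.2% and 23.6%; 6 to 37 members per library were too shallow to thin.

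Among gated T cells split by Cd4 state, the share was lower under OVA mainly on the Cd4+ side. Among kept cells both kinds were fewer under vehicle: 1020 Cd4+ and 808 Cd4- members of 25727 cells in Vehicle. Vehicle-OVA had 128 and 119 of 17498 cells. The denominator of the split shares also moved. Cd4+ cells were 51.0%, 63.0%, 48.4% and 63.5% of the other T cells. Cd4 itself was at 228, 372, 207 and 372 CPM in the other T cells. More cells with Cd4 and more Cd4 RNA per cell were not told apart there. Of gated Cd4+ T cells in the Vehicle library, 47.2% (45.1 to 49.3) were members, against 24.9% (21.2 to 28.9) with OVA. The Ribavirin library had 47.0% (44.1 to 49.8), against 22.4% (19.1 to 26.0) with OVA. Cd4- members were 42.5% (40.2 to 44.7), 34.4% (29.4 to 39.7), 42.9% (40.1 to 45.8) and 41.2% (36.5 to 46.0) of gated Cd4- T cells. The intervals of the Cd4+ shares with and without OVA lie far apart in both pairs; those of the Cd4- shares lie just apart under vehicle and overlap under ribavirin. With 1 library each, the contrast between the Cd4 states was not tested.

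Members with a Cd4 UMI were 55.8%, 51.8%, 52.4% and 41.7% of all members. The share went with depth: within Vehicle members below 3000 UMIs the share was 29.8%, from 3000 to 6000 UMIs 54.2%, and from 6000 UMIs 77.8%, and in Ribavirin-OVA it was 16.7%, 32.7% and 60.7%. A Cd4 UMI was present in 1.82% to 4.29% of neutrophils. Thinned to 2000 UMIs, 35.4%, 35.0%, 32.4% and 22.7% of members were Cd4+. The Cd4- members can therefore include cells whose Cd4 was not sampled, and the Ribavirin-OVA library was the lowest on both scales.

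**Figure D3:**
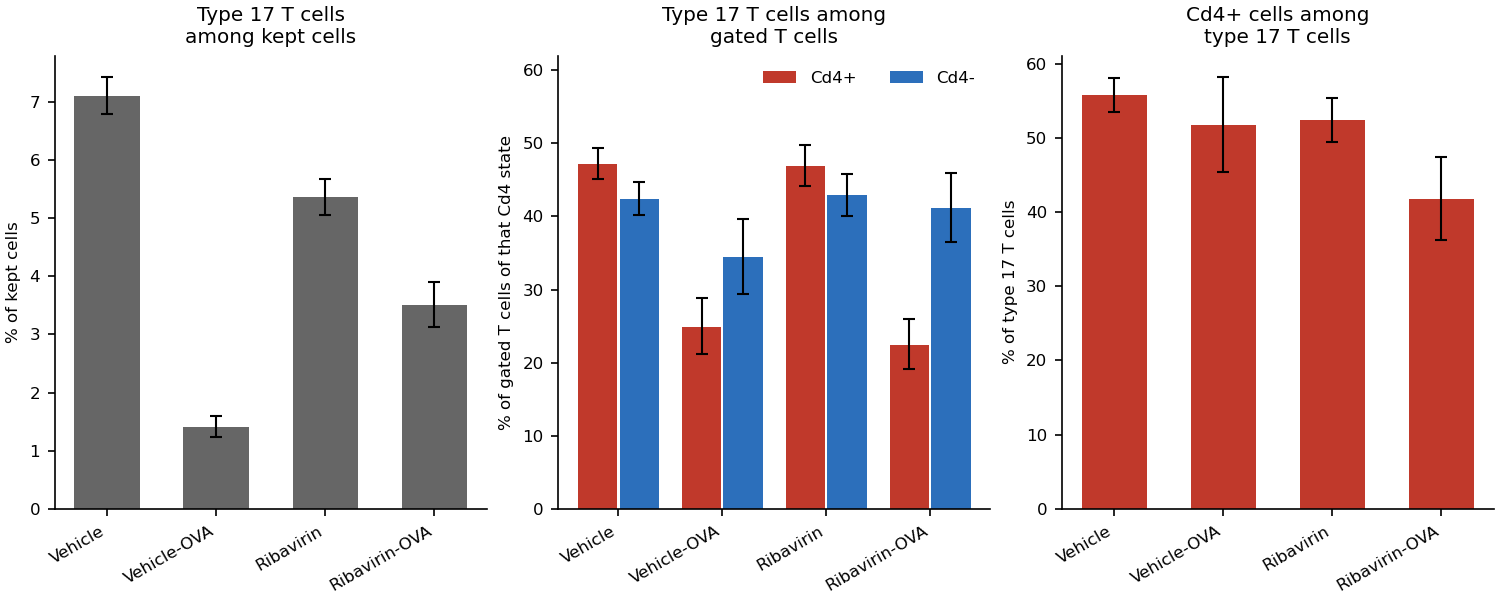
Shares in percent with 95% Clopper-Pearson intervals in the 4 libraries: members of kept cells, Cd4+ and Cd4- members of gated T cells of the same Cd4 state, and Cd4+ cells among members. Cd4+ members make up 47.2% and 47.0% of gated Cd4+ T cells without OVA and 24.9% and 22.4% with OVA.

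Il17a was summed over all cells with at least 2 Cd3 UMIs, a choice that uses the Cd3 condition of the gate and no other. It was 718, 501, 658 and 339 CPM. The OVA library had 0.697 times the level (95% counting interval 0.677 to 0.718) in the vehicle pair and 0.515 times (0.500 to 0.532) in the ribavirin pair. Il17f was 54.6, 32.8, 42.7 and 23.7 CPM, or 0.601-fold (0.535 to 0.673) and 0.555-fold (0.493 to 0.624). Both cytokines were lower over T cells as a whole in both OVA libraries, while Il17a within members was 1.13-fold (1.09 to 1.17) and 0.866-fold (0.834 to 0.900) with OVA, which the gate constrains.

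Cd4+ and Cd4- members differed in a γδ T17 list of genes, higher in Cd4- members, and in an αβ helper list, higher in Cd4+ members. Of the 9174 genes tested in sums of UMIs per library, 361 (3.94%) were higher and 380 (4.14%) lower in Cd4+ than in Cd4- members (edgeR's quasi-likelihood test, adjusted p under 0.05, library as a block). Cd4+ members were also deeper, with medians of 4871.5, 5394, 5290 and 6319 UMIs against 3676, 4321, 4928 and 4446, and the part of depth was not tested. Markers of other cell types differed with the Cd4 state too, in both directions. Summed over 7 dendritic cell genes, Cd4+ members held 1053, 112, 796 and 266 CPM and Cd4- members 1952, 216, 1542 and 266. The sum of 6 B and plasma cell genes was 226, 59.4, 191 and 147 against 875, 69.6, 195 and 173 CPM, and that of 5 ILC3 genes 79.3, 176, 81.9 and 141 against 152, 396, 159 and 276 CPM. H2-Aa and Cd74, of antigen-presenting cells, and Cd79b, of B cells, were lower in Cd4+ members by 0.75, 0.73 and 2.19 on the log2 scale, and their part in other differences was not tested. In what follows, the first 4 values of a gene are its CPM in Cd4+ members and the next 4 in Cd4- members.

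Cd4- members were higher in most γδ T17 genes. The gate admits cells on Cd163l1, which γδ T cells often bear, and its part in this difference was not tested. Cd163l1 was the only gate gene seen in 2.35%, 10.2%, 1.75% and 7.75% of Cd4+ members. Among Cd4- members it was the only one in 30.2%, 14.3%, 17.6% and 28.3%. Of the 12 tested genes of a γδ T17 list, 7 were lower in Cd4+ members (median log2 difference -0.55, against 0.02 over all genes) and Maf alone was higher; the T cell receptor genes themselves were not analysed here. Sox13, a transcription factor of IL-17-producing γδ T cells (chromosome 1, 133382303 to 133424377, minus strand, GRCm38), was measured at 0.536, 0, 2.02 and 5.78 CPM in Cd4+ and 38.6, 42.1, 44.3 and 116 CPM in Cd4- members. Cd4- members were higher in every library and the groups did not overlap; the log2 difference was -4.98 (SE 0.29, edgeR adjusted p = 6.46e-06). Blk (chromosome 14, 63372836 to 63417037, minus strand), a kinase required for these cells' development, followed the same pattern at 4.47, 0, 4.62 and 8.09 against 111, 154, 161 and 248 CPM (-4.97, SE 0.20, edgeR adjusted p = 8.88e-07). Zbtb16, which encodes PLZF, the transcription factor of innate-like T cells, had 4.64, 1.26, 6.35 and 2.31 against 63.5, 214, 92.5 and 216 CPM (-4.35, SE 0.28, edgeR adjusted p = 1.21e-05). For each of these genes the highest Cd4+ library lay below the lowest Cd4- library. Kcnk1, a potassium channel, and Igf1r, the receptor for insulin-like growth factor, fell by 3.05 and 1.65 on the log2 scale from Cd4- to Cd4+ members; Serpinb1a and Il1r1 were also lower. Serpinb1a missed the threshold without Vehicle-OVA (edgeR adjusted p = 0.0980) or Ribavirin-OVA (0.122), and Il1r1 without Ribavirin (0.0510). Tmem176a, Tmem176b, Syk and Fcer1g did not pass.

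Genes outside that list separated the members as sharply. Abi3bp and Chad, which encode extracellular matrix proteins, Frmd4a, Fam83a and the lectin-like receptor Klrb1b were between -3.23 and -4.39 in log2 difference, all lower in Cd4+ members in 4 of 4 libraries. Abi3bp, for example, was at 6.97, 0, 2.88 and 4.63 CPM in Cd4+ and 100.1, 126, 86.7 and 132 CPM in Cd4- members. Pdcd1, which encodes the inhibitory receptor PD-1, was at 45.2, 68.2, 62.3 and 134 against 95.6, 255, 214 and 331 CPM, and Cd4- members were higher within every library although the 2 ranges overlapped (-1.46, SE 0.13, edgeR adjusted p = 8.76e-05). Cd160, Nrp1 and the chemokine receptor Ccr2 were lower in Cd4+ members by 1.49, 1.19 and 1.00 on the log2 scale. Wfdc2, an epithelial gene, was called lower as well (log2 -3.24, edgeR adjusted p = 0.0299), but with cells above 25000 UMIs left out it was at -0.40, and without Vehicle-OVA the edgeR adjusted p was 0.0709. Summed over 5 epithelial marker genes, Cd4- members of the Ribavirin library held 4511 CPM and its Cd4+ members 107.3.

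Cd4+ members carried the αβ helper genes. Of 13 tested genes of that list 10 were higher in Cd4+ members (median log2 1.26), while Icos, Izumo1r and Lef1 did not pass. Tcf7 missed the threshold without Vehicle-OVA (edgeR adjusted p = 0.129) or Ribavirin-OVA (0.120). Cd5, a negative regulator of T cell receptor signalling, was at 288, 297, 246 and 278 CPM in Cd4+ and 116, 104, 86.3 and 47.9 CPM in Cd4- members. The groups did not overlap and the log2 difference was 1.67 (SE 0.16, edgeR adjusted p = 0.000139). Themis, needed for thymic selection, was at 98.4, 171, 93.2 and 180.4 against 35.8, 55.0, 24.6 and 29.7 CPM (1.85, edgeR adjusted p = 5.34e-05), and Cd6, a relative of Cd5, at 228, 312, 260.2 and 329.5 against 99.0, 103, 75.7 and 52.5 CPM (1.77, edgeR adjusted p = 0.000176). Tnfrsf4, which encodes the costimulatory receptor OX40, Cd28, Slamf1, Tnfrsf18, Cd40lg and Ctla4 were higher by 1.70, 1.46, 1.26, 0.94, 0.87 and 0.49 on the log2 scale. These differences ran the same way in all 4 libraries.

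**Figure D4:**
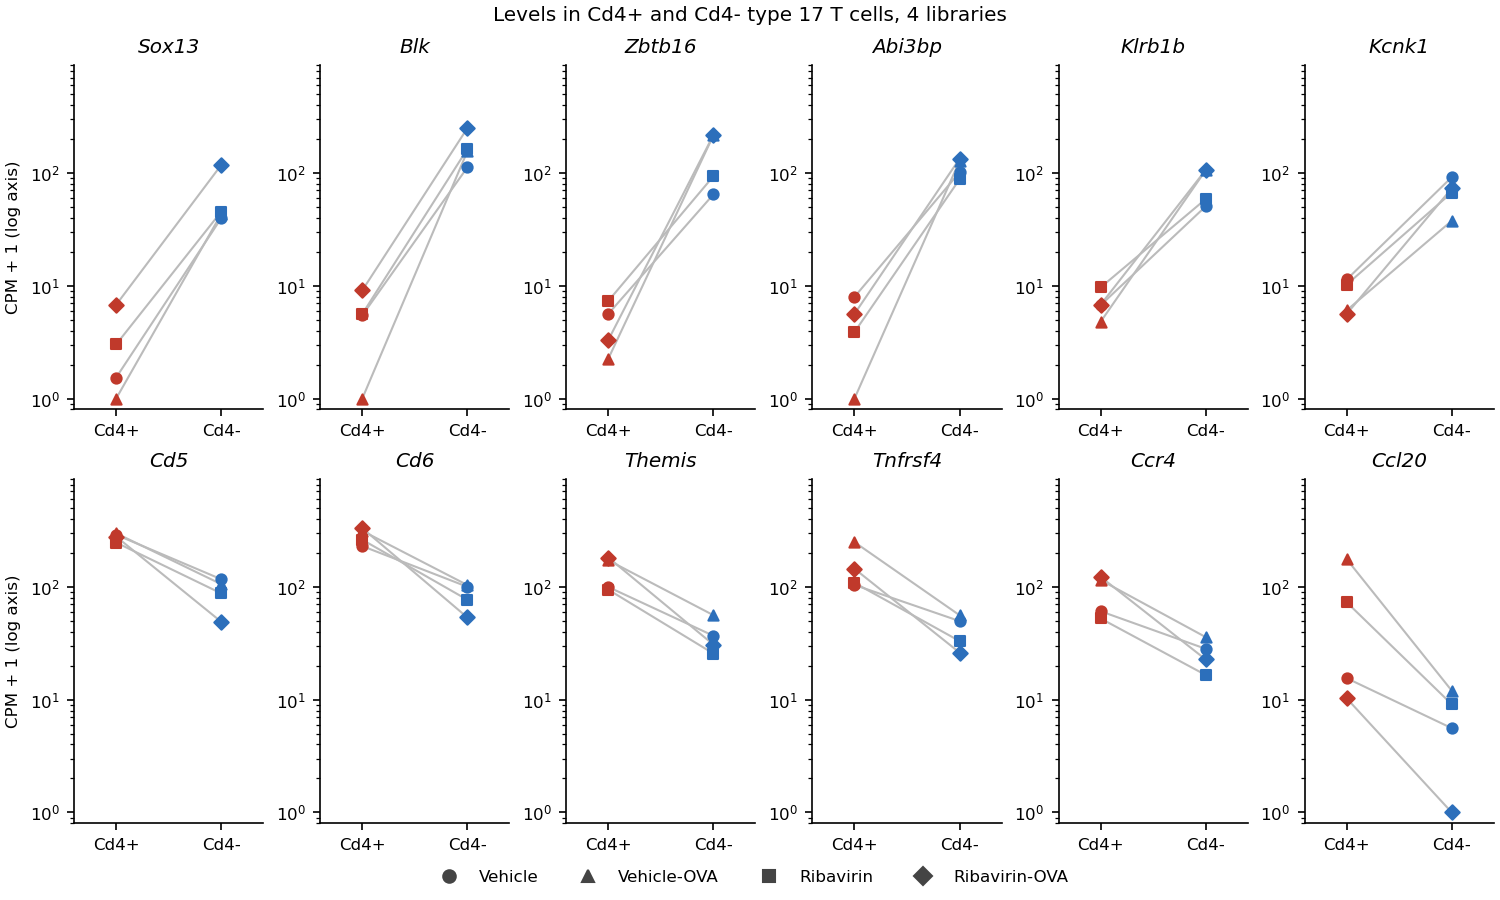
Levels (CPM + 1, logarithmic axis) of 12 genes in Cd4+ and Cd4- members, with the 4 libraries joined by lines. Sox13, Blk, Zbtb16, Abi3bp, Klrb1b and Kcnk1 fall and Cd5, Cd6, Themis, Tnfrsf4, Ccr4 and Ccl20 rise from Cd4- to Cd4+ in every library.

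The secreted products were divided too. Among 16 tested effector cytokine and ligand genes 7 were higher in Cd4+ members (median log2 0.43) and the other 9 did not pass. Ccl20, the ligand of CCR6, was at 14.5, 174, 71.8 and 9.25 CPM in Cd4+ and 4.58, 11.0, 8.09 and 0 CPM in Cd4- members (2.98, SE 0.30, edgeR adjusted p = 0.000172); Cd4+ members were higher in each library, but their own levels ranged widely across libraries and the ranges overlapped. Tnfsf11, which encodes RANKL, was at 183, 437, 147 and 320.3 against 101, 147, 71.8 and 163 CPM (1.11, edgeR adjusted p = 0.000226). The calls of Il21 (log2 2.13), Lif (2.26), Tnfsf8 (1.81) and Il22 (0.90) were each lost in at least 1 fit with a library left out. Il21 without Vehicle-OVA gave an edgeR adjusted p of 0.0567 and without Ribavirin-OVA of 0.0705; Lif gave 0.0772 and 0.172, and Tnfsf8 0.0847 without Vehicle-OVA. Il22 gave 0.143, 0.0852 and 0.102 without Vehicle, Ribavirin or Ribavirin-OVA, and in Vehicle-OVA it was lower in Cd4+ members (70.7 against 98.9 CPM). Il10 was higher by 2.69 (edgeR adjusted p = 0.00221), though DESeq2 gave an adjusted p of 0.0632. Csf2, Ifng and Tnf did not pass.

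The receptors of the type 17 programme differed in both directions. Among 14 tested cytokine receptor genes 2 were higher and 4 lower in Cd4+ members (median log2 -0.054), and among 13 chemokine receptor and homing genes 3 were higher and 4 lower (median -0.19). Il23r, the IL-23 receptor, was at 29.5, 31.6, 20.5 and 24.3 CPM in Cd4+ and 58.7, 34.8, 39.1 and 83.3 CPM in Cd4- members (-0.99, SE 0.18, edgeR adjusted p = 0.00601), with no overlap between the groups. Il7r fell by 0.71 and Il2ra by 1.02 on the log2 scale, and Il2ra missed the threshold without Ribavirin-OVA (edgeR adjusted p = 0.0668). Tgfbr1 and Tgfbr2, the TGF-β receptors, were higher by 0.98 and 0.33, and Tgfbr2 missed the threshold with any 1 library left out (edgeR adjusted p from 0.0597 to 0.153). Ccr6, by which type 17 cells follow CCL20, went the other way at 126, 196, 109 and 183 against 62.7, 40.3, 47.9 and 21.7 CPM, with no overlap (1.56, SE 0.23, edgeR adjusted p = 0.00214). Of 9 transcription factors 3 were higher in Cd4+ members (median log2 0.17), namely Maf, Batf and Hif1a by 0.63, 0.59 and 0.52. Batf missed the threshold without Vehicle (edgeR adjusted p = 0.106) or Vehicle-OVA (0.0580), and Hif1a without Vehicle (0.0503), Vehicle-OVA (0.126) or Ribavirin-OVA (0.128). Rora, Stat3, Irf4, Ahr, Runx1 and Nfkbiz did not pass, with log2 differences of 0.028, 0.042, 0.17, 0.12, 0.17 and -0.16. Actn2 and Cxcr6 were lower in Cd4+ members by -0.80 and -0.49, and missed the threshold without Vehicle-OVA (edgeR adjusted p = 0.0923 and 0.118) and without Ribavirin-OVA (0.0996 and 0.133). Il18r1 did not pass (-0.36, edgeR adjusted p = 0.0606).

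The gate genes, described without a test, followed the same division. Cd163l1 was at 15.9, 25.3, 11.5 and 27.8 CPM in Cd4+ and 332, 253, 299 and 725 CPM in Cd4- members, and a UMI of it was found in 4.61%, 13.3%, 3.51% and 12.4% of Cd4+ against 41.2%, 27.7%, 33.5% and 53.3% of Cd4- members. Il17f was at 198, 308, 177 and 185 against 132, 34.8, 86.7 and 52.5 CPM, higher in Cd4+ members of every library. Il17a was higher in Cd4+ members without OVA (2568 against 1566 CPM in Vehicle, 2544 against 1648 in Ribavirin) and lower with it (2396 against 2556 in Vehicle-OVA, 1593 against 2080 in Ribavirin-OVA).

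Next, type 17 T cells were compared with the other T cells of the same gate. Of 10823 genes tested, 570 (5.27%) were higher and 574 (5.3%) lower in members by the same test. Members were also deeper, with medians of 4259, 4923, 5136 and 5324 UMIs against 3784.5, 4523, 4248 and 5172. The part of depth was not tested. Of 9 type 17 transcription factors 5 were higher and 1 lower (median log2 0.31, against -0.01 over all genes). Irf4, a factor of T cell activation and T helper 17 differentiation, was at 66.1, 137, 74.1 and 156 CPM in members and 32.2, 64.4, 32.8 and 52.2 CPM in the other T cells. The groups did not overlap and the log2 difference was 1.20 (SE 0.10, edgeR adjusted p = 0.000356). Rora and Runx1 were higher by 0.60 and 0.49; Nfkbiz, by contrast, fell by 0.57. Maf and Ahr were called higher too. Maf gave edgeR adjusted p-values of 0.101, 0.0547 and 0.0793 without Vehicle, Vehicle-OVA or Ribavirin, and Ahr of 0.163, 0.160 and 0.0846 without Vehicle, Vehicle-OVA or Ribavirin-OVA. Stat3, Batf and Hif1a did not pass.

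Surface receptors were called in both directions. Of 14 cytokine receptor genes 5 were higher in members and 3 lower (median log2 0.17), and of 16 chemokine receptor and homing genes 5 were higher and 5 lower (median 0.25). With Vehicle or Vehicle-OVA left out, 6 of these 10 chemokine receptor and homing calls were kept. Ccr6 was at 102, 132, 80.2 and 102 CPM in members and 60.0, 42.6, 31.6 and 23.7 CPM in the other T cells (1.35, SE 0.18, edgeR adjusted p = 0.00302). Il1r1, the signalling receptor of IL-1, was at 118, 130.1, 129.9 and 185 against 53.2, 36.6, 51.5 and 27.7 CPM (1.66, SE 0.22, edgeR adjusted p = 0.00289). Both genes separated the groups without overlap. Il17re, a subunit of the IL-17C receptor, was at 146, 189.9, 124 and 168 against 69.9, 58.1, 57.6 and 54.7 CPM (1.32, edgeR adjusted p = 0.000531). Ccr9, a gut- and thymus-homing receptor, was higher by 1.90, and Il23r by 1.27 (edgeR adjusted p = 0.0343), or 0.103 without Vehicle-OVA. Il6st and Il6ra, the chains of the IL-6 receptor, fell by 1.37 and 1.05 on the log2 scale (edgeR adjusted p = 0.000365 and 0.000911), and Il18rap by 0.48 (edgeR adjusted p = 0.0142, or 0.0577 without Vehicle). Itga1, S1pr1 and Cxcr5 were lower as well, Cxcr5 with an edgeR adjusted p of 0.0598 without Vehicle. Actn2, an actin cross-linker, and Cxcr6, a chemokine receptor of tissue-resident T cells, were higher by 1.11 and 0.69; these genes had been picked as markers with results of these libraries known. Il18r1, picked in the same way, did not separate members from other T cells (0.17, edgeR adjusted p = 0.485): it was at 419.5, 751, 342 and 819.5 against 415, 605, 391 and 542 CPM.

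Effector genes differed in both directions. Il22, which encodes the epithelial repair cytokine IL-22, was at 182, 82.2, 90.7 and 64.3 CPM in members and 45.3, 48.6, 40.9 and 7.52 CPM in the other T cells (1.60, SE 0.27, edgeR adjusted p = 0.00742), higher in members in 4 of 4 libraries. Ccl20, Csf2, Tnfsf11 and Tnf were higher by 3.29, 1.35, 1.25 and 1.22. In all, 8 of 17 tested effector genes were higher and 4 lower (median log2 0.39): Ifng fell by 0.53 and Il10 by 1.94 on the log2 scale, and Il13, a type 2 cytokine, was at 0.110, 2.24, 0.457 and 2.30 against 0.735, 66.3, 3.40 and 98.2 CPM (-4.63, edgeR adjusted p = 0.000188). Of the γδ T17 list, 9 of 14 tested genes were higher and 1 lower (median log2 0.91), with Sox13 at 3.32 and Blk at 2.74. The gate admits cells with Cd163l1, which γδ T cells often bear, and keeps them out of the other T cells. The part of this selection in the list was not tested. The lower gene was Fcer1g, which gave an edgeR adjusted p of 0.0566 without Vehicle.

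Genes of other T cell programmes were lower in members. All 7 tested T helper 1 genes were lower (median log2 -1.19), among them Tbx21, which encodes T-bet (-1.19), Gzmk (-3.67) and Ccl5. Ccl5, a chemokine of memory and cytotoxic T cells, was at 315, 85.2, 249 and 36.2 CPM in members and 2128, 672, 1829 and 518 CPM in the other T cells (-3.10, edgeR adjusted p = 5.82e-05). Cxcr3 gave edgeR adjusted p-values of 0.0743, 0.0646 and 0.0603 without Vehicle, Vehicle-OVA or Ribavirin, and Stat4 of 0.0773 and 0.0772 without Vehicle or Ribavirin. Of 7 T helper 2 genes 4 were lower and 1, Ccr4, higher (median log2 -0.91), with Il1rl1, the IL-33 receptor, at -3.04; Gata3 (-0.91) gave an edgeR adjusted p of 0.0507 without Vehicle-OVA. Of 9 innate-like genes 8 were lower (median log2 -1.51), including Nkg7 (-1.88), Klrb1c (-1.88) and Xcl1 (-2.92), while Zbtb16 was higher. Zbtb16 gave an edgeR adjusted p of 0.170 without Vehicle-OVA and 0.106 without Ribavirin-OVA.

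Members had less of the recirculation genes. Klf2, which drives exit from tissue, was at 122, 189, 125 and 168 CPM in members and 291, 429.6, 272 and 275 CPM in the other T cells (-1.09, SE 0.10, edgeR adjusted p = 0.000456). S1pr1, Klf3, Lef1 and Tcf7 were lower with it, making 5 of 10 genes of a residency and recirculation list (median log2 -0.69), while Cxcr6, Rgs1 and Cd69 were higher; Cd69 missed the threshold without Vehicle-OVA (edgeR adjusted p = 0.0568). Cd27 was at 7.04, 15.7, 9.0 and 10.3 against 63.0, 105, 60.2 and 82.9 CPM with no overlap (-2.95, SE 0.11, edgeR adjusted p = 2.38e-05). Of 14 interferon-stimulated genes 9 were lower (median log2 -0.43) and the other 5 did not pass. Of these 9 calls 4 were kept without Vehicle, 6 without Vehicle-OVA, 5 without Ribavirin and 8 without Ribavirin-OVA; those lost in at least 1 run were Irf7, Zbp1, Ifi47, Oasl2 and Gbp2.

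The comparison was repeated within Cd4+ cells alone. Of 9753 genes tested between Cd4+ members and the 2618 other Cd4+ T cells, 414 (4.24%) were higher and 346 (3.55%) lower. Median depth was 4871.5, 5394, 5290 and 6319 UMIs in Cd4+ members and 3958, 4833, 4384 and 5524 in the other Cd4+ T cells, and its part was not tested. Irf4 was at 68.6, 157, 71.0 and 168 against 36.9, 77.1, 36.8 and 54.0 CPM (1.11, edgeR adjusted p = 0.000259). Ccl20, Ccr6, Il22, Sdc4 and Il17re were higher by 4.45, 1.56, 1.72, 1.69 and 1.48. Il21, the cytokine of helper cells for B cells, was higher by 1.38 (edgeR adjusted p = 0.00361), and at 0.59 (edgeR adjusted p = 0.580) when cells with UMIs of other lineages were barred. Cd27, Ccl5, Gzmk and Izumo1r were lower by 2.94, 2.79, 3.64 and 1.96. The 2 comparisons share cells, so their calls are not independent of each other.

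Finally, the levels of all genes in members were set side by side with and without OVA, under vehicle and under ribavirin. Differences here are log2 ratios of CPM after adding 5 CPM, called when past 2-fold, with no test. Of 10115 genes with enough UMIs, 7.93% were higher and 2.92% lower with OVA under vehicle, and 7.16% and 4.46% under ribavirin; 333 (3.29%) were higher and 205 (2.03%) lower in both pairs. The makeup of the libraries moved with these values: ribosomal protein genes took 24.9%, 13.6%, 23.4% and 12.7% of member UMIs, and the median log2 ratio over all genes was 0.29 and 0.28. Scaled to the total without ribosomal protein and mitochondrial genes, 145 were higher and 388 lower, so that the higher share was 27.2% instead of 61.9%. Some lists below are therefore set against the median of all genes, where this is stated. Folds and log2 ratios of single genes, and calls past 2-fold, are not shifted by that median. Across genes, transcript length also went with the ratio (Spearman rho 0.48 and 0.51 over 10100 genes, which are not independent replicates; -0.002 for Ribavirin against Vehicle); the part of either in any gene's value was not tested.

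**Figure D5:**
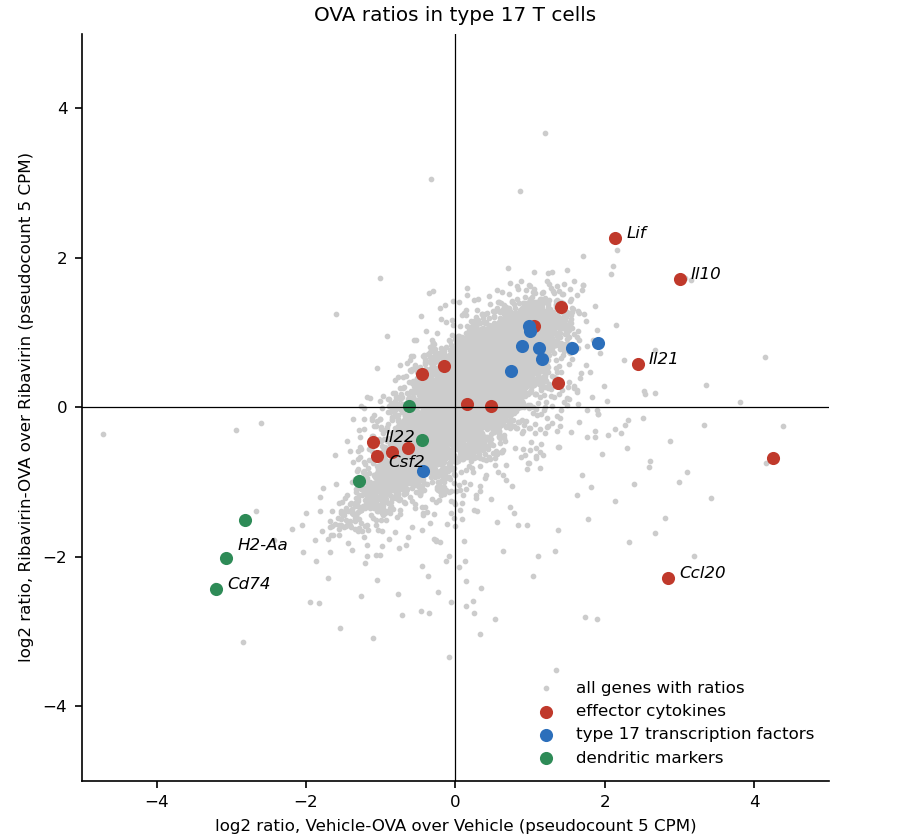
Log2 ratio with against without OVA in members, vehicle pair (horizontal) and ribavirin pair (vertical), 1 point per gene, with effector cytokines in red, type 17 transcription factors in blue and dendritic cell markers in green; 11 genes lie outside the axes. Most of the transcription factors sit to the upper right and dendritic cell markers to the lower left.

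Type 17 transcription factors stood above the median of all genes under OVA. Relative to the median of all genes, the type 17 transcription factors were 0.71 and 0.52 higher with OVA (log2, vehicle and ribavirin pairs), and 4 and 2 of 9 were past 2-fold. Irf4 was at 66.1, 137, 74.1 and 156 CPM (2.07-fold, 1.74 to 2.45, and 2.10-fold, 1.80 to 2.44) and Rora at 540.0, 1071, 587 and 1254 CPM (1.98-fold, 1.87 to 2.10, and 2.14-fold, 2.03 to 2.25). Batf, an AP-1 factor of T helper 17 differentiation, was lower in both pairs at 108, 78.5, 101 and 53.4 CPM (0.726-fold, 0.588 to 0.889, and 0.529-fold, 0.421 to 0.658). Cytokine receptors were 0.42 and 0.48 above the median, with Il2ra, the high-affinity IL-2 receptor chain, at 52.5, 205, 57.6 and 155 CPM (3.91-fold, 3.35 to 4.54, and 2.69-fold, 2.29 to 3.15) and Il18r1 at 419.5, 751, 342 and 819.5 CPM (1.79-fold, 1.67 to 1.92, and 2.40-fold, 2.24 to 2.56). The same transcription factors had median log2 ratios of 0.90 and 0.80 in the other T cells, against 1.00 and 0.80 in members. The other T cells had Il2ra at 51.8, 255, 48.7 and 228 CPM.

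Cytokines did not move together. Lif, an IL-6 family cytokine, had among the highest ratios in both pairs, at 8.36, 53.8, 3.05 and 33.9 CPM (6.44-fold, 4.60 to 9.01, and 11.1-fold, 6.59 to 19.5). Within members it was at 10.5, 90.9, 3.46 and 61.3 CPM in Cd4+ and 4.86, 0, 2.59 and 6.85 CPM in Cd4- cells, where the vehicle log2 ratio was reversed at -0.98. The other T cells had Lif at 4.62, 30.9, 6.03 and 28.9 CPM, also higher in both OVA libraries. Il10, an anti-inflammatory cytokine, was at 1.98, 50.8, 11.9 and 50.5 CPM in members (25.7-fold, 15.1 to 45.9, and 4.25-fold, 3.10 to 5.84) and at 8.60, 334, 16.6 and 223 CPM in the other T cells, so its higher levels were outside the type 17 gate. In Cd4- members alone its vehicle log2 ratio was -0.30, from levels low in both libraries, so no direction is read from it. Tnfsf11 was at 151, 318, 111 and 241 CPM (2.11-fold, 1.89 to 2.35, and 2.17-fold, 1.92 to 2.45) and Tnfsf8, the ligand of CD30, at 92.5, 254, 55.2 and 147 CPM (2.75-fold, 2.42 to 3.12, and 2.66-fold, 2.26 to 3.13). Il22 was lower with OVA, at 182, 82.2, 90.7 and 64.3 CPM (0.451-fold, 0.369 to 0.548, and 0.709-fold, 0.574 to 0.869), and Ifng at 151, 81.5, 136 and 88.4 CPM (0.539-fold, 0.439 to 0.655, and 0.651-fold, 0.545 to 0.773). Il21 was high in Vehicle-OVA alone, at 12.3, 89.0, 13.0 and 21.8 CPM (7.22-fold, 5.53 to 9.44, and 1.68-fold, 1.12 to 2.50). Csf2 was scarce, at 13.1, 3.74, 11.0 and 5.17 CPM. In the other T cells Tnfsf11 was at 77.6, 122, 47.8 and 83.9 CPM and Tnfsf8 at 52.3, 204, 38.1 and 159 CPM. Ifng there was at 180, 123, 186 and 155 CPM, so these genes moved with OVA as in members. Il22 there was at 45.3, 48.6, 40.9 and 7.52 CPM, lower with OVA under ribavirin only. Il21 there was at 3.99, 24.3, 4.18 and 23.5 CPM, higher in both OVA libraries.

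Other genes with high ratios in both pairs included the survival factor Bcl2 at 42.3, 149.5, 54.9 and 239 CPM (3.53-fold, 2.96 to 4.20, and 4.36-fold, 3.78 to 5.04), the ubiquitin ligase Rnf157 at 15.7, 84.5, 22.6 and 97.6 CPM (5.37-fold, 4.16 to 6.92, and 4.33-fold, 3.45 to 5.43), the vitamin D receptor Vdr at 5.28, 28.4, 7.93 and 35.0 CPM, and the interferon-stimulated genes Rsad2 at 8.03, 53.1, 6.71 and 45.4 CPM and Ddx60 at 12.9, 53.1, 12.0 and 48.2 CPM. Rsad2 in cells without a Cd3 UMI was at 65.2, 554, 81.3 and 125 CPM, higher with OVA in both pairs as in members, and Bcl2 there was at 26.9, 21.4, 29.0 and 43.1 CPM. In the other T cells Bcl2 was at 106, 291, 116 and 289 CPM, and Rnf157, Vdr, Rsad2 and Ddx60 had log2 ratios of 1.31 to 2.47 in the vehicle pair and 1.15 to 3.09 in the ribavirin pair. These genes were thus past 2-fold higher with OVA in both kinds of T cell. Gata3, the type 2 master regulator, was at 66.8, 145, 64.5 and 196 CPM in members (2.17-fold, 1.84 to 2.56, and 3.05-fold, 2.63 to 3.52) and 83.6, 339, 99.0 and 530.3 CPM in the other T cells, and Il1rl1 at 3.08, 9.72, 3.51 and 58.0 against 13.5, 209, 23.7 and 455 CPM. Both type 2 genes were thus present in members under OVA at levels below those of the other T cells.

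On the Cd4- side, genes of the γδ T17 list differed in the library where they were highest. Sox13, Blk, Igf1r, Il1r1, Maf, Pxdc1 and 5830411N06Rik were highest in Ribavirin-OVA. Fcer1g, Kcnk1, Serpinb1a, Tmem176a and Tmem176b were highest in Vehicle, and Etv5 and Syk in Vehicle-OVA. The share of all genes highest in each library was not taken, so no leaning of the list is read from this. Sox13 in Cd4- members was at 38.6, 42.1, 44.3 and 116 CPM, Cd163l1 at 332, 253, 299 and 725 CPM, Igf1r at 195, 489, 166 and 754 CPM and Blk at 111, 154, 161 and 248 CPM. Zbtb16 was instead high in both OVA libraries, at 63.5, 214, 92.5 and 216 CPM. Pdcd1 in Cd4- members was at 95.6, 255, 214 and 331 CPM. Among the genes lower in both pairs, Ccl5 was at 315, 85.2, 249 and 36.2 CPM (0.271-fold, 0.222 to 0.326, and 0.146-fold, 0.111 to 0.187), and the RNA polymerase II subunit gene Polr2j at 136, 33.6, 123 and 25.8 CPM (0.247-fold, 0.179 to 0.333, and 0.210-fold, 0.152 to 0.284), with 98.4, 24.7, 80.1 and 39.7 CPM in cells without Cd3. Actn2 was lower as well, at 313, 192, 312 and 217 CPM (0.614-fold, 0.538 to 0.697, and 0.695-fold, 0.621 to 0.776). Its level was lower in Cd4+ members (279, 117, 280.1 and 113 CPM) more than in Cd4- members (367, 300.4, 348 and 319 CPM). In the other T cells Actn2 was at 161, 81.4, 163 and 81.3 CPM, Ccl5 at 2128, 672, 1829 and 518, and Polr2j at 122, 34.1, 104 and 40.9. These genes were thus lower with OVA outside the members too.

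Several genes with extreme ratios belong to other cell types and moved the same way in cells without a Cd3 UMI. Lyz2, the lysozyme of myeloid cells, was at 288, 35.9, 489 and 51.1 CPM in members and 5186, 1188, 3799.7 and 1533 CPM in cells without Cd3; Cd74, of antigen-presenting cells, at 694, 71.0, 614 and 109.7 against 10410.0, 2472, 7374 and 3604 CPM; and Spp1, of macrophages, at 4.40, 78.5, 7.17 and 34.5 against 66.7, 1325, 69.7 and 864 CPM. Marker sums in members were 616, 1811, 819 and 436 CPM for 7 neutrophil genes and 1398, 155, 1148 and 266 CPM for 7 dendritic cell genes, and 4 and 3 of the 6 dendritic genes measured were past 2-fold lower. The glandular genes Obp2a and Lcn11 were at 1757, 4.49, 490.2 and 133 and 603, 5.98, 259 and 63.2 CPM in members. Without cells above 25000 UMIs, of which Vehicle held 1 among members, their vehicle log2 ratios were -1.09 and -0.74. In the other T cells they went the opposite way under vehicle, at 14.0, 1858, 2036 and 123 and 11.1, 428, 666 and 50.3 CPM. How far other cells' RNA enters each of these values was not tested.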

How the data were processed

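Cells were CD45+ nasal mucosa cells, 1 droplet library (10x 3′ chemistry) per treatment. The deposited values are UMI counts per gene and cell, made by the authors with Cell Ranger 5.0.0 on mm10 per the labels; a cell filter by the authors is not given in the sources used here. Cells with at least 500 UMIs, at least 200 genes and under 10% mitochondrial UMIs were kept. No doublet caller was run; the gate bars cells with genes of other lineages, and an alternative barred more. The members and gene lists were chosen with earlier results of these data known. Some genes of the lists are not reported here, and list counts and medians are without them.

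UMIs were summed per library and kind of cell and tested with edgeR 4.0.16 (quasi-likelihood test, TMM, filterByExpr, library as a block) in R 4.3.3, with Benjamini-Hochberg adjustment over all genes tested; the 17 gate genes were left out. The 4 libraries differ in treatment. With library as a block, p-values measure how the difference between cell groups within a library varies over these 4 libraries. Scripts were tested on simulated data. DESeq2 1.42.0, other gates and other scalings were alternatives. Counts also gave CPM, log2 ratios with a pseudocount of 5 CPM, exact Clopper-Pearson intervals for shares and Poisson-based intervals for counts, at 95%.

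Named genes are those of the lists, the 10 called genes with the largest change each way that moved alike in all libraries at 50 CPM or more in the higher group, and the 10 each way with the largest smaller ratio of the OVA pairs at 50 UMIs or more. Sequences are RefSeq's and gene positions the GRCm38 annotation's.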

Additional observations from a re-analysis of the deposited data

Results flagged for a closer look

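The OVA ratios of 4 listed genes in type 17 T cells ran in opposite directions under vehicle and under ribavirin, past 2-fold each way, among 20 such genes of 10115; with 1 library per treatment the difference between the pairs was not tested. Ccl20, the CCR6 ligand, had log2 ratios of 2.85 (vehicle) and -2.29 (ribavirin). Its levels in members were 10.7, 108, 41.8 and 4.59 CPM, and in the other T cells 4.09, 1.26, 3.56 and 0.235 CPM. Gzma, a cytotoxic granule protease, had log2 ratios of -1.60 and 1.25, at 68.8, 19.4, 23.5 and 62.6 CPM. S100a9, a neutrophil gene, had log2 ratios of 1.63 and -1.17, and in cells without a Cd3 UMI its level was 9477, 17822, 12845 and 6298 CPM. Bpifa1, an airway epithelial gene, had log2 ratios of 1.34 and -3.52 at 13.5, 41.9, 2079 and 177 CPM in members and 571, 789, 3413 and 5738 CPM in cells without a Cd3 UMI.

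Il17a was also present in T cells with at least 2 Cd3 UMIs and at least 2 UMIs of Cd8a and Cd8b1, which the gate leaves out; they numbered 1007, 305, 723 and 369. An Il17a UMI was found in 14.6%, 13.8%, 17.8% and 20.6% of them, against 2.13%, 0.939%, 2.47% and 1.65% of neutrophils, and their Il17a level was 176, 414, 227 and 322 CPM.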

How the results depend on the processing

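With a mitochondrial limit of 5%, more lineages barred, at least 4 Cd3 UMIs or thinning to 2000 UMIs, the log2 ratio with against without OVA of the share of kept cells was -2.62, -2.10, -2.54 and -2.60 under vehicle, and -0.40 (lineages barred) and -0.81 (thinned) under ribavirin. The share of gated T cells gave -0.74 under ribavirin when only Il17a or Il17f counted. The Cd4+ share of members became 63.8% (Vehicle), 56.8% (Ribavirin) and 48.0% (Ribavirin-OVA) with Il17a or Il17f only. It became 50.3% (Vehicle) and 44.3% (Vehicle-OVA) with lineages barred, 47.7% (Ribavirin-OVA) with the 5% limit, and 35.4%, 35.0%, 32.4% and 22.7% after thinning. Over Cd3 cells, the log2 OVA ratio of Il17a was -0.46 and -0.70 as a mean of cells and -1.03 with 4 Cd3 UMIs under ribavirin; that of Il17f was -1.03 and -0.48 with the 5% limit, and -1.75 with 4 Cd3 UMIs under ribavirin.

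Genes past 2-fold with OVA in both pairs numbered 623 higher and 342 lower with a pseudocount of 1 CPM, 97 and 116 with 20 CPM, and 145 and 388 without ribosomal protein and mitochondrial genes. In Cd4- members alone, the vehicle log2 ratios of Lif and Il10 had the opposite sign, at -0.98 and -0.30, both from low levels.

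Calls between Cd4+ and Cd4- members numbered 209 and 247 with DESeq2, 198 and 248 with Il17a or Il17f only, and 626 and 688 with no filter on low counts. Without the replicate block, that is the library pairing, they numbered 25 and 94, those against other T cells 37 and 49, and those within Cd4+ cells 5 and 11. Lower calls within Cd4+ cells numbered 197 with DESeq2 and 616 with no filter, and lower calls against other T cells 876 with no filter. Il2ra within Cd4+ cells reversed from -0.65 to 0.10 with lineages barred (adjusted p = 0.840, edgeR). The causes were not tested. Leaving out 1 library at a time, genes higher in Cd4+ than in Cd4- members ranged from 151 (without Ribavirin-OVA) to 239 (without Ribavirin), with 214 and 199 without Vehicle and Vehicle-OVA, and genes lower from 272 to 329. Against the other T cells, 328 (without Vehicle) to 517 were higher, with 366 without Vehicle-OVA, and 305 (without Vehicle) to 546 lower. Within Cd4+ cells 290 to 405 were higher and 211 (without Vehicle) to 409 lower. Of 741, 1144 and 760 calls, 282, 494 and 376 were kept in all 4 such runs, and 86, 74 and 14 in all 15 fits.

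The Vehicle-OVA and Ribavirin-OVA libraries hold 247 and 309 members, so genes of few UMIs are imprecise there; 1 library per treatment leaves the spread between mice unmeasured.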
